A study of Ptychidio jordani with 7 samples.

Results

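Muscle of Ptychidio jordani, the ratmouth barbel, was profiled by RNA sequencing and set against libraries of heart, liver, gill and fin and a library labelled spleen. The species is a carp relative that lives in fresh water. Muscle was 1 of 7 libraries in the series, and the comparison used 6 of them, with 1 sample per tissue. The kidney library was kept out of the reference because it holds the same egg genes as muscle, and its values are given separately. The table listed 26107 genes, of which 20865 had at least 1 FPKM (fragments mapped to a gene, scaled to its transcript length and to the size of the library) in at least 1 of the 6 libraries. The samples were bulk tissue described only as normal, and the labels gave no strain, age, sex, stage or number of animals. The fin piece came from the tail fin.

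Skeletal muscle fibres contract when calcium released from an internal store lets myosin thick filaments pull on actin thin filaments, a switch set by troponin and tropomyosin. Fast fibres, which form most of a fish fillet, use their own copies of these proteins and large amounts of parvalbumin, a soluble calcium buffer, while slow fibres and heart use other copies and more oxygen-based metabolism. Growing fish eggs hold zona pellucida proteins, which build the egg coat, together with stored messenger RNA, germ plasm and cell cycle proteins for the first divisions. Egg coat proteins are not known as products of the muscle fibre, and fibre genes and egg genes are described apart.

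With 1 sample per tissue there was no replicate check, no spread and no test, and differences are descriptions of these libraries. FPKM is corrected for transcript length and expressed as a share of the library, so a gene can be lower where other genes take a larger share. In bulk tissue, fewer cells of a type and less RNA per cell cannot be told apart. The files give no read totals, so the depth behind each value is unknown. Summed FPKM lay between 552739 and 765084, and 8816 to 16811 genes reached 1 FPKM per library, with 14514 in muscle. The library labelled spleen carried liver genes: vtg1 (Pjo21814), a yolk precursor made in liver, was at 30654.6 FPKM there and 47062.7 in liver, against 1.02 in muscle.

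A gene was called enriched in muscle when its FPKM there was at least 10 and its FPKM + 1 was at least 5-fold that of the highest of the 5 reference libraries. By this rule 1142 of 20865 genes were enriched, or 5.47%, and together they held 41.0% of the summed FPKM of muscle. Muscle was the highest of the 6 libraries for 7629 genes, or 36.6%. The fibre lists supplied 48 of the enriched genes and the egg lists 118, while 976 were in neither. The count of 1142 was 1997 without fin, 1152 without the spleen-labelled library and 454 after median-of-ratios scaling. Over all genes tested, the median difference between muscle and the mean of the 5 was 0.37 on the log2(FPKM + 1) scale, and it was -0.18 after that scaling.

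**Figure D1:**
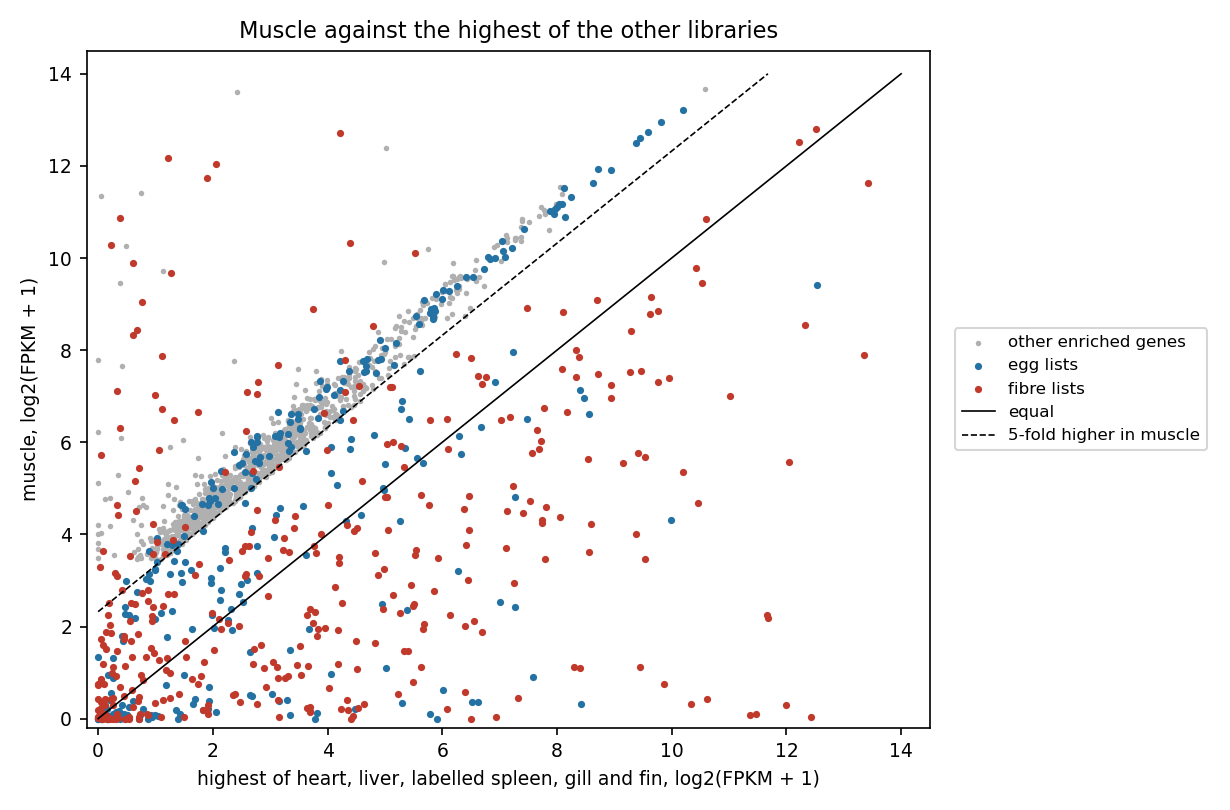
Level of each listed or enriched gene in muscle against the highest of heart, liver, gill, fin and the spleen-labelled library, both as log2(FPKM + 1), with fibre lists in red, egg lists in blue and other enriched genes in grey. Red points spread over the whole plane, while most enriched blue points run in a narrow band just above the dashed 5-fold line.

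Kidney values divided the enriched genes into groups of different makeup. Of the 1142 genes, 85 (0.407% of all genes tested) were also at least 5-fold above kidney, and 42 of these 85 were in the fibre lists and 0 in the egg lists. A further 545 were at least 5-fold higher in kidney too than in every reference library, with 1 fibre and 78 egg genes among them. The remaining 512 lay between, with 5 fibre and 40 egg genes. The 85 held 8.60% of the summed muscle FPKM, the 545 held 15.8% and the 512 held 16.7%. Kidney had been left out because it shares egg genes with muscle. The lack of egg genes among the 85 was thus foreseen and is only a description.

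The distance to the next library also differed in size. For the 85 genes above kidney the median log2 ratio to the highest of the 5 was 4.57, with quartiles of 3.70 and 6.76, and the next library was gill for 47, fin for 21 and heart for 17. For the 545 genes shared with kidney the median was 2.90 with quartiles of 2.70 and 3.14, and fin came next for 523. In the group between them the median was 2.60 with quartiles of 2.44 and 2.85, and fin came next for 490. At a 10-fold rule, which 127 genes or 0.609% of those tested met, 71 of the 85 were kept, against 51 of the 545 and 5 of the 512.

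The markers of fast fibres were high in the library labelled muscle. TNNI2 (Pjo24475), the fast troponin I that holds the thin filament off at rest, was at 4619 FPKM in muscle, against 0 in heart, liver and the spleen-labelled library, 1.32 in gill and 0.09 in fin. MYLPF, the fast regulatory light chain of myosin, was at 4226 in muscle, against 0.12 in heart, 0 in liver and the spleen-labelled library, 3.15 in gill and 0.17 in fin. TNNT3 (Pjo07736), the fast troponin T, was at 3438 in muscle, against at most 2.72, in gill. Skeletal actin acta1 (Pjo16962) was at 6707 in muscle, 0.56 in heart, 17.6 in gill and 0 in liver, fin and the spleen-labelled library. Each of these 4 was far higher in muscle than anywhere else, with gill the next library, and kidney held 0.05 to 1.97 FPKM of them. They are the copies with the highest level in any of the 6 libraries, as TNNI2 had 6 copies, TNNT3 3, MYLPF 2 and acta1 1. Among copies with exactly these symbols, the only other one called was TNNI2 (Pjo24474), at a log2 ratio of 3.56 to the highest reference library.

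**Figure D2:**
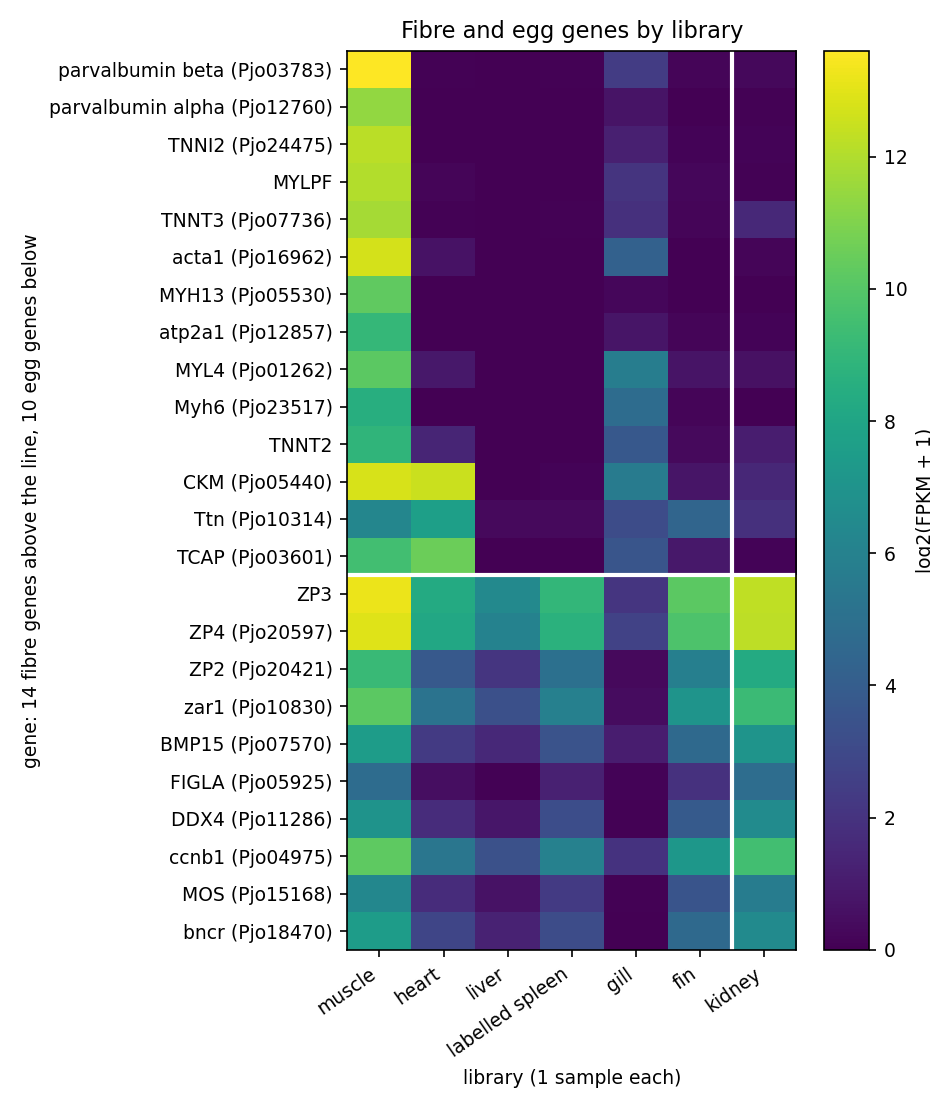
Level of 14 fibre genes and 10 egg genes in each library as log2(FPKM + 1), with muscle in the first column and kidney set apart in the last. Fast fibre genes are bright in muscle alone, CKM, Ttn and TCAP are bright in muscle and heart, and egg genes are bright in muscle and kidney with lower levels in fin and the spleen-labelled library.

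Across the 8 fibre lists 310 gene copies were tested. Muscle was highest for 133 of them, or 42.9% beside 36.6% of all genes, and heart for 124. Of the 310, 48 or 15.5% were enriched in muscle, beside 5.47% of all genes. The median log2 difference from the mean of the 5 was 1.65, beside 0.37 for all genes. With heart left out of the reference, 104 of the 310 or 33.5% were enriched, beside 6.15% of all genes. The fibre lists held 8.63% of the summed FPKM in muscle, against 13.9% in heart, 0.764% in liver, 0.828% in the spleen-labelled library, 0.717% in gill and 0.983% in fin.

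Thick filament genes were headed by fast myosin chains. MYH1B, a fast myosin heavy chain, was at 1863 FPKM in muscle, against 0.14 in liver, 0.31 in gill and 0 in heart, fin and the spleen-labelled library. MYH13 (Pjo05530), whose closest protein match was also a fast skeletal heavy chain, was at 1236 in muscle, against 0.17 in gill, 0.01 in liver and 0 in the other 3. The light chain myl1 (Pjo10277) was at 945 in muscle, with 0.53 in gill as the next value. All of these were close to absent outside muscle. MYL2 (Pjo10851), a light chain with a slow or cardiac name, was also among the 3 members of the list highest in muscle. Its log2 ratio to the highest reference library was 5.95.

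Of 38 thick filament genes tested, 18 were highest in muscle, or 47.4% beside 36.6% of all genes, and 17 in heart. The call was met by 12, or 31.6% beside 5.47% of all genes. The 12 enriched members included the myosin-binding proteins MYBPH (Pjo07119) at 319 FPKM in muscle and Mybpc2 (Pjo23565), the fast form, at 233, with no reference library above 1.16 for either. The slow form MYBPC1 (Pjo04368) was at 40.8 in muscle, against 5.48 in gill and 0.68 in heart. At the other end MYH7 (Pjo01657), the slow and ventricular heavy chain of mammals, was at 0.02 in muscle and 5515 in heart. Titin, the spring that spans the sarcomere, was not called: Ttn (Pjo10314) was at 76.0 in muscle, against 200.2 in heart, 20.7 in fin and 8.09 in gill.

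Searching the annotation rather than the symbols found further heavy chains, a step chosen after the data were seen. Of 10 genes matched to a skeletal muscle myosin heavy chain, 8 were tested and all 8 were highest in muscle, beside 36.6% of all genes. The call was met by 6, or 75% beside 5.47% of all genes. The 10 genes held 0.442% of the summed muscle FPKM, and 3 of them were already in the lists. The copy myo-3 (Pjo22482) and a copy without a symbol were at 840 and 699 FPKM in muscle, against 1.20 and 0.30 in gill, and no other reference library passed 0.06 for either. Copies this alike may share reads, so the division of signal among them is uncertain.

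Thin filament genes were the list most often called among the fibre lists, with 16 of 44 enriched, or 36.4% beside 5.47% of all genes. Muscle was highest for 26, or 59.1% beside 36.6% of all genes. Troponin I had the most copies: beside the 2 enriched TNNI2 copies, the slow-named copies Tnni1 (Pjo24663), Tnni1 (Pjo18007), TNNI1 (Pjo24661) and Tnni1 (Pjo24662) were at 204, 158, 99.9 and 24.0 FPKM in muscle and at 0.40, 0.22, 0.05 and 0 in heart. ACTN3 (Pjo08392), the alpha-actinin of fast fibres, was at 129 in muscle, and its second copy (Pjo20990) was at 78.3. No reference library passed 0.98 for either ACTN3 copy. Nebulin, the ruler of thin filament length, was less particular: NEB (Pjo09985) was at 149 in muscle, against 22.4 in gill, 17.6 in fin and 11.8 in heart, with 43.4 in kidney.

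Several of the most abundant fibre genes carried no symbol and so lay outside the lists, and they were picked after their values were seen. A gene matched to tropomyosin alpha-1 had the largest ratio of all, 11.30 on the log2 scale, with 2597 FPKM in muscle, against 0.03 in gill and 0 in the other 4. A skeletal troponin C match (Pjo23045) was at 1217 in muscle and at most 0.40 elsewhere among the 5. The gene with the symbol lancl1 (Pjo01050) was matched to a skeletal myosin light chain instead, and was at 5363 in muscle, against 31.5 in fin and 27.1 in gill. A count by symbol alone thus leaves out main parts of the contractile apparatus.

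Parvalbumin was the leading fibre product. The copy matched to parvalbumin beta (Pjo03783) was the second most abundant gene of the muscle library at 12439.8 FPKM, against 0.07 in heart, 0 in liver, 0.06 in the spleen-labelled library, 4.35 in gill and 0.12 in fin, with 0.22 in kidney. Parvalbumin alpha (Pjo12760) was at 2709 in muscle, 0.67 in gill and 0 in the other 4. The symbol pvalb7 (Pjo21665) was at 217 in muscle, against 4.17 in gill and 0.36 in fin. Of 7 parvalbumin genes tested, these 3 were enriched, or 42.9% beside 5.47% of all genes. The family held 2.19% of the summed muscle FPKM and at most 0.00232% in a reference library.

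Z disc and assembly genes, which anchor thin filaments and fold myosin, were mostly shared with heart. The alpha-actinins ACTN2 and ACTN3, which also anchor thin filaments at the Z disc, were not on this list, and its counts leave them out. Of 57 tested, 5 or 8.77% were enriched, beside 5.47% of all genes, and 33 were highest in heart. With heart left out, 31 or 54.4% were enriched, beside 6.15% of all genes. MYOZ1 (Pjo13487), a calcineurin-binding protein of fast Z discs, was at 137 FPKM in muscle, against at most 0.25, in gill. The titin cap TCAP (Pjo03601) was at 707 in muscle, against 1469 in heart and 11.2 in gill. TRIM63 (Pjo06483), a ubiquitin ligase that turns over sarcomere proteins, was at 484 in muscle and 176 in heart, with 0.93 in gill. FBXO32 (Pjo16409), another ligase of muscle wasting, was at 135 in muscle, 18.8 in heart and 44.7 in kidney and was called. Csrp3 (Pjo08263), a LIM protein of the Z disc, was at 0.68 in muscle and 935 in heart.

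Genes of the calcium store followed the fast and cardiac forms. The fast calcium pump atp2a1 (Pjo12857), which refills the store, was at 530 FPKM in muscle, against 0.03 in heart, 0 in liver and the spleen-labelled library, 0.70 in gill and 0.15 in fin. Sln, sarcolipin, a small inhibitor of that pump, was at 814 in muscle, with 1.42 in gill and 0 in the other 4. CASQ1 (Pjo01980), the calcium-binding protein inside the store, was at 346 in muscle and at most 0.60, in fin. Their cardiac counterparts were arranged the other way, as CASQ2 (Pjo10178) was at 15.2 in muscle and 665 in heart, and Pln, phospholamban, at 3.75 in muscle and 3247 in heart.

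Of 35 calcium store and excitation genes tested, 6 or 17.1% were enriched, beside 5.47% of all genes. With heart left out, 14 or 40% were enriched, beside 6.15%. The voltage sensor subunit CACNG1 (Pjo06509) was at 20.5 FPKM in muscle and at most 0.27, in gill. The release channel itself did not differ from heart by the 5-fold: Ryr1 (Pjo18369) was at 16.7 in muscle, 21.9 in heart and 1.92 in gill. JPH2 (Pjo22753), a junctophilin that ties the store to the cell surface, was the 1 enriched fibre gene shared with kidney, at 16.8 in muscle, 1.84 in fin and 14.9 in kidney.

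Nerve contact genes were mostly low in level. MUSK (Pjo11328), the receptor kinase that assembles the neuromuscular junction, was at 10.6 FPKM in muscle, against 0.36 in heart, 0.47 in gill and 0.16 in fin. The acetylcholine receptor subunit chrna1 (Pjo06400) was at 11.0 in muscle and 1.23 in heart. These were the 2 enriched of 16 tested, or 12.5% beside 5.47% of all genes, both just above the 10 FPKM limit. The receptor subunits CHRND (Pjo23787) and CHRNB1 (Pjo08114) were higher in heart, at 3.95 and 2.0 in muscle and 12.8 and 10.5 in heart. The subunit CHRNG (Pjo05385) was marginally highest in muscle, with a log2 ratio of 0.05 to the highest reference library. The enzyme ache (Pjo08009), which breaks down acetylcholine, was at 56.2 in muscle, 15.0 in fin and 31.6 in kidney.

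Of 41 regulators of muscle fate, fusion and growth, 1 was enriched, beside 5.47% of all genes. That gene was myod1 (Pjo24471), the master factor of the muscle lineage, at 56.3 FPKM in muscle, against 0.59 in heart, 0.03 in liver, 0.06 in the spleen-labelled library, 1.08 in gill and 0.07 in fin. VGLL2 (Pjo17442) and six1b (Pjo19780), factors of the fast fibre programme, were at 4.67 and 4.64 in muscle, against at most 0.14 and 0.56, both in gill, and did not reach 10 FPKM. MYOG (Pjo11862), which drives differentiation, was at 1.49 in muscle and 1.29 in gill. The stem cell factor Pax7 (Pjo23030) was at 0.89 in muscle, against 2.45 in fin. Factors of the MEF2 family were not higher in muscle, with MEF2A (Pjo18285) at 10.3 in muscle, 60.1 in heart and 29.2 in gill. Myostatin, a brake on muscle growth, was low in muscle: mstnb (Pjo10286) was at 1.16, against 313 in heart.

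Energy genes were led by creatine kinase, which rebuilds ATP during a burst of contraction, and were shared with heart. CKM had 2 abundant copies, Pjo05440 at 7155 FPKM in muscle and 5885 in heart, and Pjo15297 at 5878 in muscle and 4760 in heart, with at most 49.9 in another reference library. Adenylate kinase ak1 (Pjo04896) was at 1833 in muscle and 1546 in heart. The muscle form PGAM2 (Pjo21208), an enzyme of glycolysis, was at 539 in muscle and 414 in heart, and the glycogen phosphorylase PYGM (Pjo20978) at 63.2 in muscle and 34.1 in heart. These levels lay within 5-fold of heart. Of 50 energy genes tested, 4 or 8% were enriched, beside 5.47% of all genes, and 17 or 34% were with heart left out, beside 6.15%.

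The enriched energy genes were the AMP deaminase AMPD1 (Pjo09358), which drains AMP in hard exercise, at 132 FPKM in muscle and 5.82 in heart, the triosephosphate isomerase tpi1a (Pjo18847) at 98.3 in muscle and 14.2 in heart, and 2 copies of Ppp1r27 (Pjo06576 and Pjo03820), a phosphatase subunit, at 105 and 42.5 in muscle and at most 1.17 and 0.63 in a reference library. Oxygen storage was the reverse, as myoglobin mb (Pjo00192) was at 236 in muscle and 10491.3 in heart. The abundant glyceraldehyde-3-phosphate dehydrogenase gapdh (Pjo16701) was at 3175 in muscle and 10989.9 in heart.

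Genes of the dystrophin complex and the fibre membrane had a share called near that of all genes. Of 29 tested, 2 were enriched, or 6.90% beside 5.47% of all genes, and the median difference was 0.95, beside 0.37. The 2 were HHATL (Pjo01629) at 13.3 FPKM in muscle and 1.03 in fin, and TLN2 (Pjo07918), a talin that links integrins to actin, at 13.7 in muscle, 1.46 in heart and 11.1 in kidney. DMD (Pjo00963), dystrophin, was at 7.57 in muscle, 4.89 in gill and 0.63 in heart. The dystroglycan gene DAG1 (Pjo21705) was at 17.5 in muscle, 18.4 in heart and 19.2 in gill. The membrane protein bves (Pjo16826) was at 0.49 in muscle and 83.2 in heart.

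**Figure D3:**
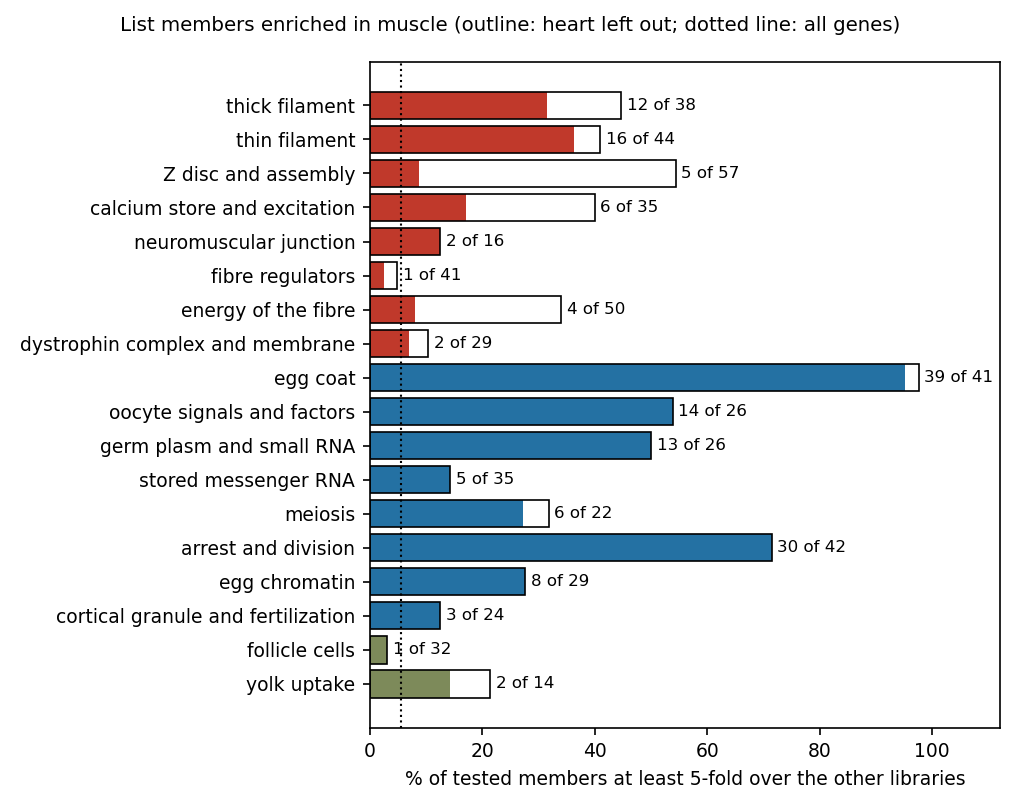
Share of the tested members of each list that were enriched in muscle, in %, with fibre lists in red, egg lists in blue and follicle lists in green, the black outline showing the share with heart left out, and the dotted line the 5.47% of all genes. Leaving out heart lengthens the bars of thick filament, Z disc, calcium and energy lists and hardly changes the egg lists, where egg coat has 39 of 41 members enriched.

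Set against heart alone, the fibre lists split into sides of similar size. Of the 310 genes tested, 58 were at least 5-fold higher in muscle with at least 10 FPKM there, 69 were at least 5-fold lower with at least 10 FPKM in heart, and 83 were within 5-fold with at least 10 FPKM in either. The other 100 did not reach 10 FPKM in the higher of the 2 tissues. The same split was not counted over all genes tested, so whether it is particular to fibre genes was not tested.

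**Figure D4:**
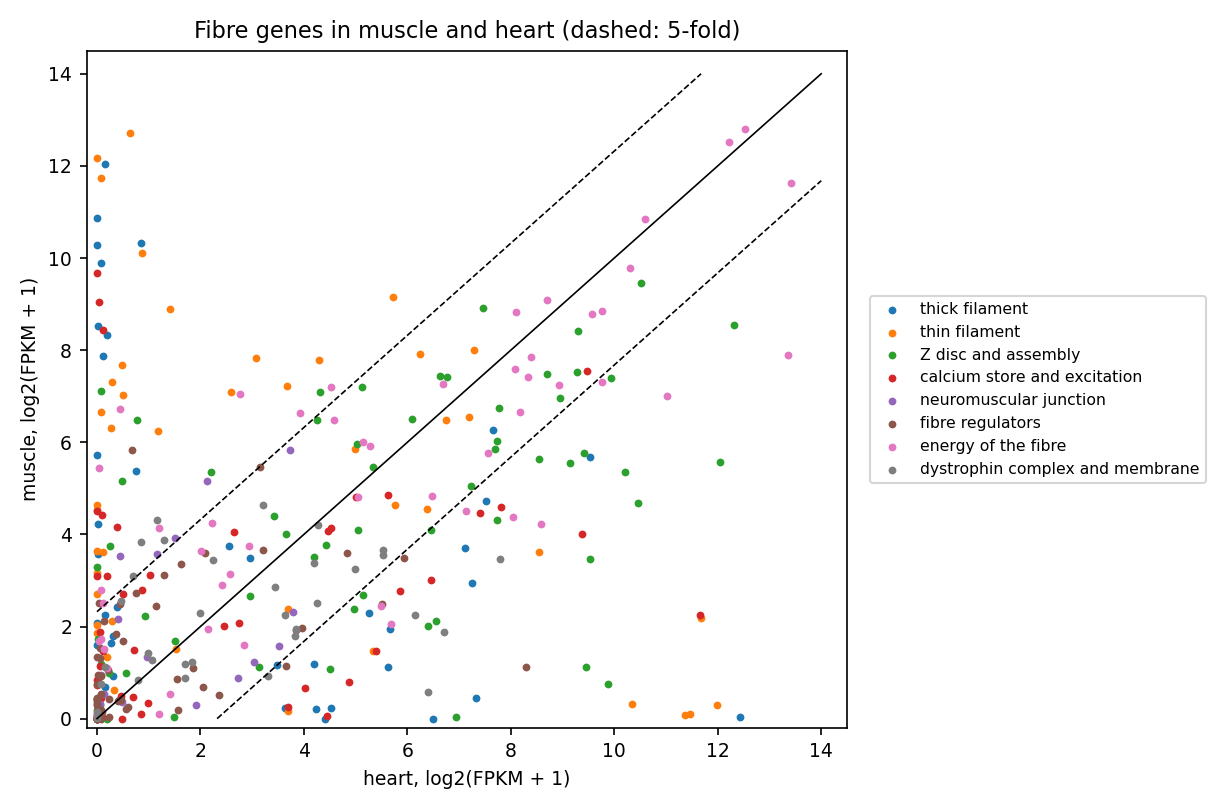
Each fibre gene in muscle against heart, both as log2(FPKM + 1), coloured by list, with the dashed lines at 5-fold to either side of equality. Thin and thick filament genes stand at both edges, while energy and Z disc genes lie nearer the diagonal at high levels, with CKM and ak1 within 5-fold.

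For 11 symbols different copies stood on opposite sides of that comparison. Among the light chains with the atrial name MYL4, Pjo01262 was at 1170 FPKM in muscle and 0.82 in heart, and Pjo05118 was listed at 0 in muscle and was at 11017.7 in heart. For cardiac troponin T the first TNNT2 copy was at 475 in muscle and 1.66 in heart, and the copy Pjo23257 at 0.05 in muscle and 2637 in heart. For alpha-actinin 2 the copy ACTN2 (Pjo12259) was at 75.3 in muscle and 1.27 in heart, and the copy Actn2 (Pjo17261) at 0.24 in muscle and 1290 in heart. A name taken from heart thus did not tell in which of these libraries a copy was high.

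Less lopsided pairs were found too. The Z disc protein MYOZ2 had copies at 34.9 and 88.6 FPKM in muscle (Pjo14639 and Pjo20901), against 0.39 and 0.70 in heart, while another copy (Pjo00752) was at 45.7 in muscle and 565 in heart. MYOM2, which ties thick filaments together at the M band, had a copy at 17.7 in muscle and 0.02 in heart (Pjo13218) and another at 25.3 in muscle and 183 in heart (Pjo11951). The other symbols with copies on both sides were ACTC1, HHATL, MYH6, MYLK4, TNNC1 and TNNI1. Symbols came from the closest database match, so copies that share a symbol need not be each other's nearest relatives.

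Gill was the library next to muscle for 30 of the 48 enriched fibre genes, ahead of fin for 10 and heart for 8, after the call had removed the fibre genes that heart shares. Symbols were also assigned to a fast group or a slow or cardiac group, a step chosen after the data were seen. The fast group took in genes without fast in their name, such as acta1 and Sln. Its 18 enriched genes had a median gill level of 0.0749% of the muscle level, and only 1 of them reached 1%. In the 12 enriched genes of the slow or cardiac group the median was 3.92%, and all 12 reached 1%. The summed FPKM of the fast group was 25706 in muscle and 30.5 in gill, and that of the slow or cardiac group was 5235 in muscle and 194 in gill. In the slow or cardiac group, Myh6 (Pjo23517) was at 368 in muscle and 26.8 in gill, and MYL2 (Pjo10851) at 1291 in muscle and 19.9 in gill. Only copies called in muscle entered the group, and slow fibre markers outside it went the other way. The MYH7B copy Pjo11808 was at 0.36 in muscle and 159 in heart, and TNNT1 (Pjo03351) at 1.83 in muscle and 5.61 in gill. Copies of TNNI1 stood on both sides, as described above. How much muscle tissue the gill piece held was not tested.

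The egg lists made a second, larger group. Of 245 egg gene copies tested, 185 were highest in muscle, or 75.5% beside 36.6% of all genes. The call was met by 118, which is 48.2% beside 5.47% of all genes. The median log2 difference of the 245 from the mean of the 5 was 3.21, beside 0.37 for all genes. Together they held 13.8% of the summed FPKM in muscle, against 1.5% in heart, 0.452% in liver, 1.12% in the spleen-labelled library, 0.653% in gill and 2.17% in fin, and 7.51% in kidney. The muscle library thus held more FPKM in listed egg genes than in listed fibre genes. The sums were built differently, as the egg coat list also took in genes by description and the fibre lists only by symbol. Abundant fibre genes without a symbol, parvalbumin beta among them, were thus left out of the fibre sum. The count of 118 was 75 after median-of-ratios scaling, 9 at 10-fold and 0 with kidney in the reference.

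Egg coat genes were the most abundant. Of 41 tested, all 41 were highest in muscle, beside 36.6% of all genes, and 39 or 95.1% were enriched, beside 5.47%. The leading ZP3 copy, a zona pellucida protein, was at 9431 FPKM in muscle, against 315 in heart, 82.5 in liver, 508 in the spleen-labelled library, 3.27 in gill and 1168 in fin, with 5029 in kidney. ZP4 (Pjo20597) was at 7937 in muscle, against 287 in heart, 64.9 in liver, 415 in the spleen-labelled library, 5.53 in gill and 895 in fin, with 4787 in kidney. ZP2 (Pjo20421) was at 592 in muscle, against 58.6 in fin and 0.29 in gill, with 314 in kidney. In each of the 3 genes the order was muscle, kidney, fin, the spleen-labelled library, heart, liver and gill.

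Of the 30 most abundant genes in muscle, 13 were egg coat genes. The 2 egg coat members not called were ZP4 (Pjo19173), at 55.5 FPKM in muscle and 11.3 in heart, and GNG5 (Pjo01356), at 157 in muscle and 120 in fin, which joined the list by its description and not its symbol. Zona pellucida genes came in many copies, 24 of ZP3 and 13 of ZP4 in this table, and where copies are alike the division of signal among them is uncertain.

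By their quartiles the egg coat genes kept narrow proportions to muscle in fin, kidney, liver and the spleen-labelled library, and wider ones in heart and gill. Over the 39 enriched members, the fin level was a median 10.7% of the muscle level with quartiles of 9.54% and 11.5%. The median was 5.07% in the spleen-labelled library with quartiles of 4.92% and 5.35%, and 2.65% in heart with quartiles of 2.07% and 3.06%. It was 0.779% in liver with quartiles of 0.675% and 0.826%, and 0.0429% in gill with quartiles of 0.0324% and 0.0786%. In kidney it was 58.6%, with quartiles of 54.8% and 62.8%. The full range was 7.23% to 13.1% in fin, 50.4% to 77.4% in kidney and 4.29% to 5.99% in the spleen-labelled library. It was 1.12% to 3.71% in heart, 0% to 1.16% in liver and 0% to 1.21% in gill. The members share the libraries and were chosen for being at least 5-fold above them, so this is a description.

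The other 79 enriched egg genes had the same order of libraries by their medians. Their median level was 11.8% of that in muscle for fin, 5.53% for the spleen-labelled library, 2.2% for heart, 0.632% for liver and 0.471% for gill, with 74.0% for kidney. Over all 122 other egg genes with at least 10 FPKM in muscle, called or not, the spread was wider, with a median of 13.1% for fin, 2.83% for heart and 2.12% for gill and upper quartiles of 31.1%, 8.01% and 21.5%. In the 48 enriched fibre genes the same measure was 0.126% for heart, 1.01% for gill and 0.111% for fin, and 0.112% for kidney. These genes were chosen for being at least 5-fold above heart and the other references, which bears on the order. Over all 155 fibre genes with at least 10 FPKM in muscle, the median was 60.4% for heart, 4.11% for gill and 1.32% for fin.

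**Figure D5:**
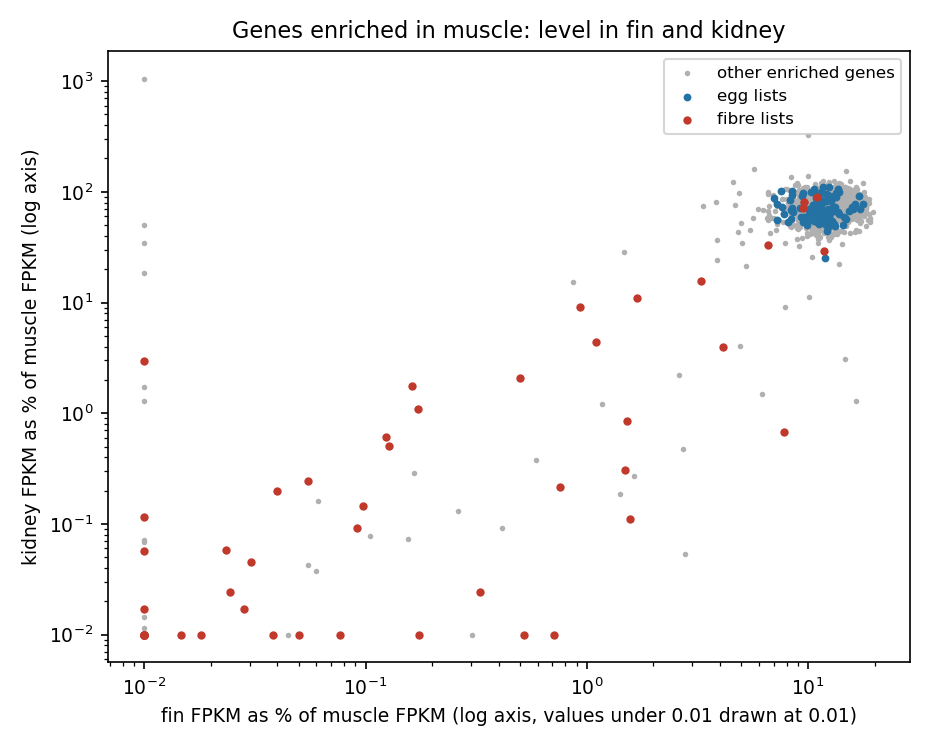
Fin level against kidney level of each enriched gene, both as % of its muscle level on log axes, with fibre lists in red, egg lists in blue and other enriched genes in grey. Egg genes form 1 compact cloud around medians of 10.7% to 11.8% in fin and 58.6% to 74.0% in kidney, while most fibre genes scatter over the lower values of both axes. Of the 976 other enriched genes, 285 lay within the range of the enriched egg coat genes on both axes.

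Growth factors and transcription factors of the oocyte were called in 14 of 26 genes tested, or 53.8% beside 5.47% of all genes. The copies of zar1, a protein needed for the first divisions after fertilization, were at 1137 FPKM (Pjo10830) and 1011 (Pjo19741) in muscle, against 132 and 113 in fin and 0.37 and 0.42 in gill. GDF9 (Pjo14091), a growth factor that the oocyte sends to its follicle, was at 24.1 in muscle, 1.69 in fin and 21.3 in kidney. FIGLA (Pjo05925), a switch for egg coat genes in mammals, was at 26.7 in muscle, 2.84 in fin and 28.5 in kidney. NANOG (Pjo24006), a maternal factor that helps to start the embryo's own genes in zebrafish, was at 62.9 in muscle, 5.31 in fin and 63.9 in kidney. The last 2 were thus slightly higher in kidney than in muscle.

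Germ plasm and small RNA genes mark and protect the germ line. They were called in 13 of 26 genes tested, or 50% beside 5.47% of all genes. GTSF1 (Pjo22808), a partner of the piRNA machinery, was at 461 FPKM in muscle, against 9.21 in heart, 2.96 in liver, 21.3 in the spleen-labelled library, 0.06 in gill and 57.6 in fin. DDX4 (Pjo11286), the germ cell helicase vasa, was at 126 in muscle and 13.4 in fin. The organizer of the fish germ plasm buc (Pjo01733) was at 102 in muscle and 18.2 in fin. Also called were NANOS3 (Pjo00186) at 62.5 in muscle, dazl (Pjo19069) at 50.4 and piwil2 (Pjo05895) at 31.1. DAZAP1 (Pjo12048), an RNA-binding protein found in many tissues, was lower in muscle at 97.6, against 222 to 377 in the 5 reference libraries.

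For the control of stored messages, 5 of 35 genes were enriched, or 14.3% beside 5.47% of all genes. Zfp36l2 (Pjo08221), which clears messages in the mouse egg, was at 551 FPKM in muscle, 62.7 in fin and 0.11 in gill. The egg-type cap-binding protein eif4e1b (Pjo04818) was at 216 in muscle and 23.4 in fin, and patl2 (Pjo12864), which represses translation in oocytes, was at 187 in muscle and 19.8 in fin. The broadly used ybx1 (Pjo08628) was at 679 in muscle and 5932 in heart. The list's median difference was 1.49, and its other called members were Lsm14b (Pjo23392) and ELAVL2 (Pjo21780), RNA-binding proteins, at 160 and 12.8 in muscle.

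Meiosis genes were lower in level, with 6 of 22 enriched, or 27.3% beside 5.47% of all genes. Muscle was highest for 18, or 81.8% beside 36.6% of all genes. The break factor mei4 (Pjo20036) was at 71.8 FPKM in muscle and 8.93 in the spleen-labelled library. RAD21L1 (Pjo08661), a meiotic cohesin, was at 22.5 in muscle and 1.86 in fin. SYCP3 (Pjo24685), an axis protein of pairing chromosomes, was at 11.4 in muscle and 1.60 in fin, just short of the 5-fold.

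Arrest and division genes were called in 30 of 42 tested, or 71.4% beside 5.47% of all genes. Among the egg lists this was the highest share after the egg coat. Cyclin ccnb1 (Pjo04975), which drives entry into division, was at 1191 FPKM in muscle, against 148 in fin, 61.2 in the spleen-labelled library, 39.3 in heart, 9.54 in liver and 2.93 in gill. Securin PTTG1 (Pjo14323) was at 1017 in muscle and 120 in fin. Genes whose known role is in the oocyte were among them: MOS (Pjo15168), which holds the egg in arrest, was at 76.7 in muscle and 10.5 in fin, and the oocyte kinase wee2 (Pjo18237) at 223 in muscle and 24.8 in fin. The list also covers dividing cells in general, and which cells its signal came from was not tested. Its median level was 63.2 FPKM in muscle and 1.75 in gill, and ube2c (Pjo07125) was at 772 in muscle and 8.14 in gill.

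Egg chromatin genes were called in 8 of 29 tested, or 27.6% beside 5.47% of all genes. The histone H2AX (Pjo01158) was at 1898 FPKM in muscle, 281 in fin and 2.69 in gill. Nasp (Pjo06748), a carrier of histones, was at 768 in muscle, 91.6 in fin and 14 in gill. Of the cortical granule and fertilization list, 3 of 24 were enriched, or 12.5% beside 5.47% of all genes. That list's median difference was -0.76, below that of all genes. Its called members were bncr (Pjo18470), the bouncer protein through which a fish egg takes in sperm, at 185 in muscle and 24.4 in fin, with Spdya (Pjo17378) at 63.7 in muscle and 5.83 in fin and mfsd2aa (Pjo13775) at 86.3 in muscle and 9.11 in fin. FETUB (Pjo21795), a liver product on that list, was at 0.24 in muscle and 337 in liver.

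Further secreted proteins with the same profile were found by annotation, after the data were seen. A gene matched to ladderlectin (Pjo09485) was the most abundant gene of the muscle library, at 12938 FPKM, against 442 in heart, 120 in liver, 559 in the spleen-labelled library, 4.64 in gill and 1527 in fin. A fish-egg lectin (Pjo11188) was at 1757 in muscle and 182 in fin. Lectins of these kinds were enriched in 5 of 22 tested, or 22.7% beside 5.47% of all genes. Alpha-2-macroglobulins, which are protease traps, were enriched in 10 of 24, or 41.7%. WAP domain proteins, a family of protease inhibitors, were enriched in 7 of 9, or 77.8%. These families held 2.27%, 1.03% and 1.12% of the summed muscle FPKM. The lectins as a family were not higher in muscle, with a median difference of -0.04, beside 0.37 for all genes. Muscle was highest for 36.4% of them, beside 36.6% of all genes. The alpha-2-macroglobulins had a median level of 4.575 FPKM in muscle, below 18.065 in the spleen-labelled library. Muscle was highest for 62.5% of that family, and its median difference was 1.76.

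The highest protease trap A2ML1 (Pjo02640) was at 1446 FPKM in muscle, 137 in fin, 9.36 in liver and 859 in kidney, and the highest WAP protein Wfdc18 (Pjo22198) was at 2674 in muscle, 271 in fin and 1388 in kidney. No gene of the 3 families was among the 85 genes that stood above kidney. Of the 976 enriched genes outside the fibre and egg lists, 546 had a fin level within the range of the enriched egg coat genes relative to muscle, and 285 had both the fin and the kidney level within it. Of the 48 enriched fibre genes 1 did.

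Genes of the cells that surround the egg were also looked at. Of 32 follicle cell genes tested, 1 was enriched, or 3.1% beside 5.47% of all genes, and the list's median difference was 0.43, beside 0.37. The enriched gene was INHA (Pjo06503), an inhibin subunit, at 23.4 FPKM in muscle, 3.30 in fin and 12.8 in kidney. FOXL2 (Pjo02371), the factor of granulosa identity, was at 1.78 in muscle and 16.9 in gill, and cyp19a1 (Pjo24979), the enzyme that makes oestrogen, at 0.31 in muscle and 18.5 in fin. AMH (Pjo21893) was at 2.07 in muscle and FSHR (Pjo12628) at 0.21. GSDF was not matched by symbol. Muscle was the highest of the 6 libraries for 11 of the 32, or 34.4% beside 36.6% of all genes. AMH was among the 11, with 1.75 in heart as the next value. These also included NR5A2 (Pjo03006), a nuclear receptor, at 36.0 in muscle and 7.04 in the spleen-labelled library, and cyp17a1 (Pjo13618), an enzyme of steroid synthesis, at 4.61 in muscle and 0.32 in fin. Summed over the list, follicle cell genes came to 193 FPKM in muscle, against 80.1 to 147 in the 5 reference libraries.

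Receptors by which the oocyte takes up yolk were present. VgR (Pjo05998), matched to the vitellogenin receptor, was at 110 FPKM in muscle, 9.54 in fin and 75.1 in kidney. It lay outside the yolk uptake list and was picked after its values were seen. LRP2 (Pjo11343), a large receptor of the same family, was at 51.4 in muscle, 3.65 in fin and 42.2 in kidney. The yolk precursor vtg1 (Pjo21814), which liver makes, was at 1.02 in muscle. Of 14 yolk uptake genes tested, 2 were enriched, or 14.3% beside 5.47% of all genes. The 2 called members of that list were LRP2 and CTSL (Pjo05725). Among its other receptors, LRP8 (Pjo06759) had a log2 ratio of 2.28 to the highest reference library, under the 5-fold. For LRP1 (Pjo22951) the ratio was -3.02.

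Markers of other cell types were also looked at. No gene of the red cell, fibroblast, endothelium, nerve, fat, epidermis, hepatocyte, leukocyte or smooth muscle lists was enriched, of 13, 20, 11, 10, 11, 22, 16, 16 and 10 tested in that order. With 5.47% of all genes called, lists of this size could hold few calls. The median difference was 1.02 in the fat cell list and 0.68 in the nerve list, beside 0.37 for all genes. Of 15 cardiac genes, 13 were highest in heart, and the 2 enriched in muscle were the copies MYL4 (Pjo01262) and Myh6 (Pjo23517) described above, while the heart peptides NPPA (Pjo08642) and NPPB (Pjo08643) were at 0.01 and 0 in muscle. The epithelial gene Epcam (Pjo13285) was at 1154 in muscle, 4472 in gill, 2940 in fin and 616 in kidney, unlike krt8 (Pjo23182) at 33.7 in muscle and 1258 in gill. Haemoglobin hba (Pjo03032) was at 2007 in muscle and 31173.9 in heart.

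A gene was called depleted when its lowest reference library had at least 10 FPKM and was at least 5-fold above muscle. This was met by 18 of 20865 genes, or 0.0863%, and by 51 with heart left out. By the ratio to the lowest reference library, the furthest of those with a symbol was Gnai1, an inhibitory G protein subunit, at 3.07 FPKM in muscle, against 103 in heart, 48.9 in liver, 54.7 in the spleen-labelled library, 52.0 in gill and 34.4 in fin. IGFBP1 (Pjo19844), which binds insulin-like growth factors, was at 3.88 in muscle and 32.5 to 71.9 in the 5. The amino acid transporter Slc43a1 (Pjo14077) was at 4.99 in muscle and 36.5 to 115 in the 5. No member of the fibre or egg lists was depleted by this rule.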

How the data were processed

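RNA of 7 tissues was sequenced, with 1 sample per tissue. Total RNA was extracted with TRIzol and made into libraries from purified mRNA, per the labels' protocols. The authors deposited FPKM per gene, with HISAT2 2.2.1 and RSEM 1.3.3 named, per the submitters' processing notes. Genome build, annotation, strand setting and read depth: not given in the sources used here. Gene symbols and descriptions are the closest database matches in the deposited table. Symbols were matched regardless of case and of a final a or b.

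Values were compared as log2(FPKM + 1) with Python 3.11.15 and pandas 2.3.3, and the call rules were tested on simulated data. Genes tested had at least 1 FPKM in at least 1 of 6 libraries. With 1 sample per tissue no p-value was computed, and a call means past 5-fold with at least 10 FPKM. Named per list were the 3 members highest in muscle, the 3 with the largest ratio and the lowest, all regulators, nerve contact and follicle genes, copies split between muscle and heart, and the 12 of largest or lowest ratio in the other groups. Others named were chosen after their values were seen. Members and lists were chosen with earlier results of these data known. Alternatives changed the fold, minimum, pseudocount, scaling and reference libraries.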

Additional observations from a re-analysis of the deposited data

How the results depend on the processing

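The count of 1142 enriched genes was 550 with a minimum of 50 FPKM, 3194 at 2-fold, 2155 at 3-fold, 127 at 10-fold, 3036 against the mean of the 5, 480 with a pseudocount of 5, 454 after median-of-ratios scaling, 85 with kidney included and 1997 without fin. Without fin and the library labelled spleen, a setting added after the data were seen, it was 2033. The 18 depleted genes were 3, 120, 50, 4, 72, 3, 55 and 11 under those first 8 settings in that order, 51 without heart, and 88 without heart and gill, also added later. The 48 fibre genes were 113 against the mean of the 5, 104 without heart and 110 without heart and gill. The 118 egg genes were 9 at 10-fold, 75 after median-of-ratios scaling, 0 with kidney included and 76 with 1 gene per symbol. By construction egg genes at a median 10.7% to 11.8% of the muscle level in fin pass 5-fold and mostly miss 10-fold. In the other 59 values of these 4 counts the change was at most 1.5-fold.

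Of the 111 called genes named by the rule, 2 reversed, both with kidney included: NANOG (Pjo24006) to -0.021 and PGBD4 (Pjo24382) to -0.66 on the log2 scale. FIGLA, named outside the rule, was also higher in kidney. Over 11 settings 1219 of 1221 values for these genes kept their direction and 106 were under 5-fold. Most of this was fixed in advance. A changed pseudocount cannot reverse a direction, and leaving out a reference library cannot lower the ratio to the highest one. Only the settings that changed the scaling or added kidney could reverse a gene. No paired analysis was possible because each tissue had 1 sample. No replicate could be left out, and the unknown read depth limits what low FPKM values can show.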

Other observations

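Outside the fibre lists, the 85 genes that stood above kidney as well as above the 5 reference libraries held further named members. The small heat shock protein hspb11 (Pjo03304) was at 970 FPKM in muscle, 30.7 in heart and 1.35 in gill, and hsp70 (Pjo09081), a chaperone, was at 193 in muscle and 10.2 in heart. The phosphatases dusp29 (Pjo12295) and DUSP13 (Pjo13556) were at 58.3 and 24.0 in muscle, against at most 1.38 and 0.72 in a reference library. IGFN1 (Pjo06991), an immunoglobulin domain protein known from skeletal muscle, was at 67.3 in muscle and at most 0.32, in gill. Pacsin3 (Pjo23563), a membrane-bending protein, was at 65.2 in muscle and 1.78 in gill. Abra (Pjo07059), which binds actin, was at 185 in muscle and 12.9 in heart.

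A few loci with neither symbol nor protein match were listed at 0 in nearly every other library. The most abundant was at 221 FPKM in muscle and was listed at 0 in the other 6 libraries, kidney included. Another was at 33.7 in muscle, with 0.43 in kidney and 0 in the 5. In the opposite direction, a locus without a match was listed at 0 in muscle, against 48.2 to 162 in the 5 reference libraries and 57.6 in kidney, and another was listed at 0 in muscle, against 27.1 to 283 in the 5 and 74.4 in kidney. Among named genes called depleted, the lectin itln (Pjo07844) was at 1.52 in muscle and 13.0 to 39.4 in the 5, the class I antigen H2-Q10 (Pjo19168) at 6.01 in muscle and 36.6 to 447 in the 5, thioredoxin txn (Pjo08061) at 11.1 in muscle and 59.9 to 1860 in the 5, and the sterol regulator srebf2 (Pjo02457) at 1.42 in muscle and 11.8 to 41.9 in the 5.

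Of the enriched genes, 257 had no symbol. The 30 most abundant genes of muscle comprised 8 that stood above kidney, 17 shared with kidney or between, and 5 that were not enriched.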
